A study of Homo sapiens with 10 samples.

Results

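The receptor tyrosine kinases MET, AXL, TYRO3, MST1R, EPHA2, FGFR1, FGFR2, FGFR3, FGFR4 and RET were followed through 5 human prostate cancer cell lines by bulk RNA-seq. They were chosen by name and are 10 of 60642 gene symbols in the deposited table. LNCaP (clone FGC), DUCAP, VCAP, DU145 and PC3 were each measured as 2 biological repeats, and all 10 samples were untreated cells grown in phenol red-free RPMI with fetal bovine serum. The labels name no engineered allele and no added agent. Each group is a single established line, so differences between lines cannot be separated from differences between the tumours they came from. DUCAP and VCAP were derived from metastases of the same patient. Values are TPM (each transcript's length-scaled abundance on a fixed common total), so levels of different genes can be set side by side. TPM keeps no read count, and the depth behind each value is unknown.

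Receptor tyrosine kinases span the cell membrane. An outside part binds a growth factor, receptors pair, and the inside kinase part phosphorylates tyrosines that adaptor proteins bind, which among other routes turns on the RAS and ERK cascade. MET and MST1R (also called RON) are relatives that bind HGF and MST1, secreted factors that a serine protease must cut to become active. AXL and TYRO3 form with MERTK the TAM family, which binds GAS6 and PROS1. EPHA2 binds ephrin-A ligands held on neighbouring cells. FGFR1 to FGFR4 bind fibroblast growth factors together with heparan sulphate, and RET needs a GFRA co-receptor to bind ligands of the GDNF family. In prostate tumours, MET and AXL have been linked to invasive and treatment-resistant disease.

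MET, MST1R, AXL and EPHA2 carried the clearest division of the lines, so the 250 bases before an annotated start of each are shown, 5′ to 3′ on the gene's strand, from RefSeq on GRCh38.p14. Capitals mark the matches to GGGCGG (the SP1 box) and CCGGAA (an ETS site) on either strand. The windows are chr7:116671946-116672195 (+) for MET, chr3:49903874-49904123 (-) for MST1R, chr19:41218973-41219222 (+) for AXL and chr1:16156070-16156319 (-) for EPHA2.
MET: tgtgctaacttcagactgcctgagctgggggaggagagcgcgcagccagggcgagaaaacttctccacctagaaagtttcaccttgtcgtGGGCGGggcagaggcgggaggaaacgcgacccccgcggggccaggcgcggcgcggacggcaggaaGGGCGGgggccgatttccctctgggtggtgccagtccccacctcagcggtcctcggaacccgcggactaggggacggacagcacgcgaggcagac
MST1R: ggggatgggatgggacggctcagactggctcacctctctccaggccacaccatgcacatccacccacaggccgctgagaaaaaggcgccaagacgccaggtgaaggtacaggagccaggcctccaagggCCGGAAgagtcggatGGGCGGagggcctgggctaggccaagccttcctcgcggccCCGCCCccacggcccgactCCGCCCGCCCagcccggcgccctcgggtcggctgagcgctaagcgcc
AXL: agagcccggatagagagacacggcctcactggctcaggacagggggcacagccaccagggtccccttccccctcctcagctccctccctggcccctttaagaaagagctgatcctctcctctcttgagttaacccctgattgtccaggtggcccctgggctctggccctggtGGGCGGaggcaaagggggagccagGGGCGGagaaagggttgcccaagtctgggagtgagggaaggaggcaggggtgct
EPHA2: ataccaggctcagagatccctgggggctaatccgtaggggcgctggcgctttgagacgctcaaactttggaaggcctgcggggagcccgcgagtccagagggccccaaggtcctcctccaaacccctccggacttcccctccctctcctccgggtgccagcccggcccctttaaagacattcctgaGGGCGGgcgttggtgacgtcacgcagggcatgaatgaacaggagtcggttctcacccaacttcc

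Of the 9 members with a window searched here, these 4 were printed because their transcripts moved together. The MET window held 24 CpG dinucleotides, with SP1 boxes beginning 160 and 95 bases before the start. MST1R had 20 CpG, 4 SP1 boxes, of which those beginning 47 and 43 bases before the start overlap, and an ETS match 121 bases before it. The AXL window, the first of 2 annotated for this gene, was poorer, at 4 CpG, with SP1 boxes 78 and 54 bases before the start, and EPHA2 had 15 CpG and a single SP1 box at 64 bases. The other AXL window (chr19:41226505-41226754) had 13 CpG and an ETS match 236 bases before its start. The median over all 35116 windows of this length was 11 CpG. An SP1 box stood in 42.6% of all windows and an ETS match in 14.5%. The AP-1 motif TGANTCA, which 6.57% of windows hold on either strand, was not among the letters of these 4. TYRO3 had a match 220 bases before its first annotated start. These are letter matches only, and say nothing on which factor binds.

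As genes, MET lies on chromosome 7 from 116672196 to 116798377, MST1R on chromosome 3 from 49887002 to 49903873, AXL on chromosome 19 from 41219223 to 41261766 and EPHA2 on chromosome 1 from 16124337 to 16156069 (GRCh38.p14). TYRO3 lies on chromosome 15 from 41559212 to 41583589.

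All 10 samples expressed the 4 epithelial markers EPCAM, CDH1, KRT8 and KRT18. Their summed level was 536.7 to 1350 TPM in LNCaP, DUCAP and VCAP and 636.1 to 2091 TPM in DU145 and PC3. The sum hides that CDH1 and EPCAM were lower in DU145 and PC3 without overlap. CDH1 was at 104.47 TPM or more in LNCaP, DUCAP and VCAP, 46.29 to 72.35 TPM in DU145 and 3.78 to 9.74 TPM in PC3. EPCAM was at 114.24 TPM or more in LNCaP, DUCAP and VCAP and at most 109.24 TPM in DU145 and PC3. KRT8 and KRT18 were highest in DU145 and overlapped between the groups. The 6 luminal markers divided the lines, at 3182 to 8841 TPM summed in the first group and 11.8 to 567.3 TPM in the second, where KLK2 and KLK3 did not reach 1 TPM. Endothelial markers summed to at most 5.46 TPM in any sample, fibroblast markers to at most 39.4 TPM, of which COL1A1 in PC3 made up 31.5 to 38.0 TPM, and of the leukocyte markers only CD68, a lysosomal protein gene, reached 1 TPM (up to 101 TPM in DU145). The share of TPM from mitochondrial genes was 12.7% to 22.5% in DU145 and PC3 and 18.9% to 36.0% in the other samples. The part of these differences in the results was not tested, apart from runs with TPM rescaled without the mitochondrial genes, given below. In a bulk sample, fewer expressing cells and less RNA per cell cannot be told apart.

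A minimum of 1 TPM in 2 or more samples was set for the fit, which 17520 genes and 8 members met. FGFR2 and RET did not. Members such as AXL passed through the lines where they are high and had to differ, so the count of 8 out of 8 with a difference among the 5 lines (limma F-test, adjusted p under 0.05) supports nothing. By that test 90.8% of all genes were called. In DU145 and PC3 against LNCaP, DUCAP and VCAP, 51.9% of all genes were called higher and 22.5% lower, with a median log2 difference of 0.401. The higher share of these calls was 69.8%, and 46.2% with quantile-normalized values, 52.2% with median-ratio scaling and 60.7% with TPM rescaled without the mitochondrial genes. Of the 8 members tested, 7 were higher and FGFR3 was lower, also under each of these scalings. All log2 values below are differences of log2(TPM + 1), which understate the change of low genes. The p-values of limma measure the spread between repeats of these 5 lines, and say nothing of other lines.

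**Figure D1:**
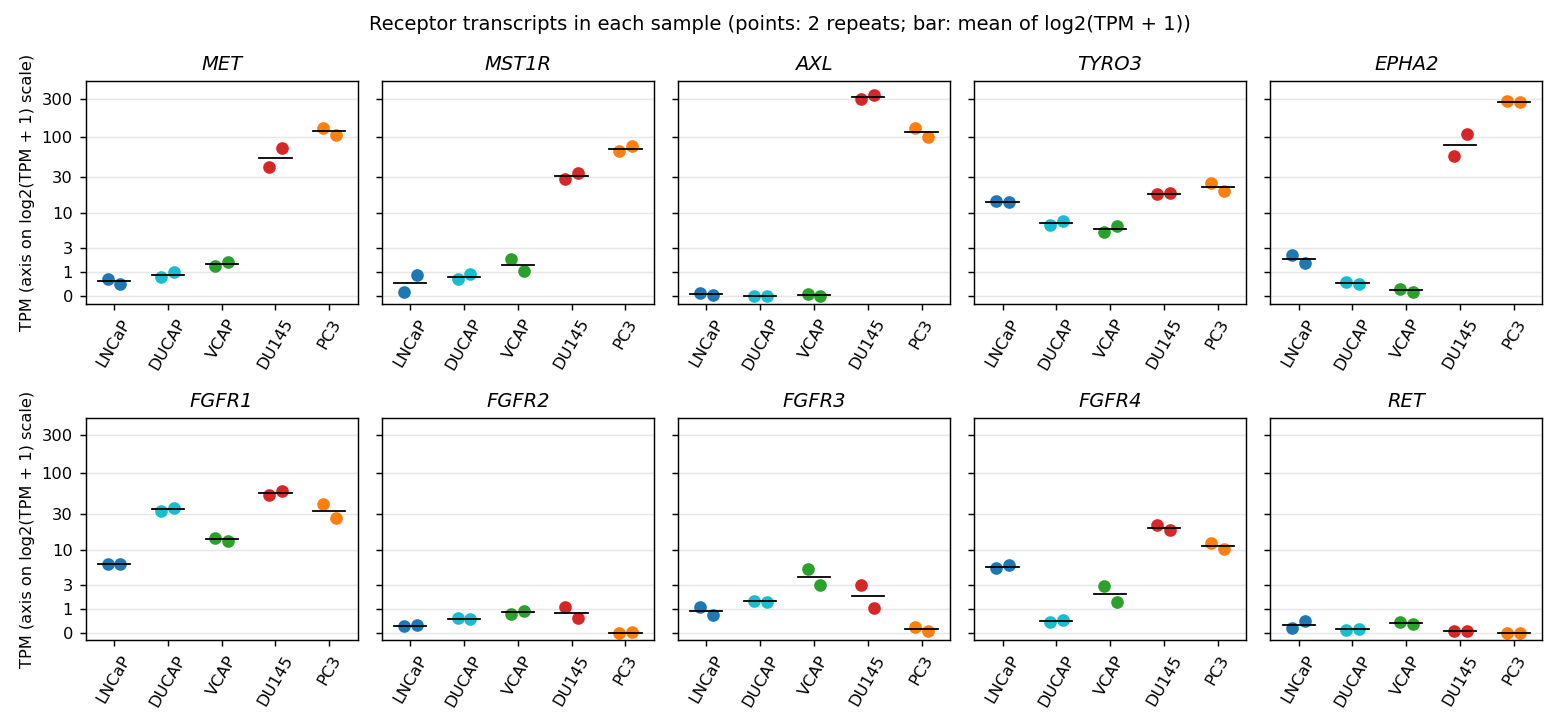
TPM of the 10 receptor genes in every sample, on a log2(TPM + 1) axis. Points are the 2 repeats of each line and the bar is their mean on the log2 scale. MET, MST1R, AXL and EPHA2 sit at or below 2.33 TPM in LNCaP, DUCAP and VCAP and at or above 28.6 TPM in DU145 and PC3, while FGFR1, FGFR2 and FGFR3 overlap between these groups.

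MET, the receptor of hepatocyte growth factor, was low in 3 lines and abundant in the others. It was listed at 0.67 and 0.45 TPM in the repeats of LNCaP, 0.75 and 1.0 (DUCAP), 1.39 and 1.69 (VCAP), 40.75 and 70.6 (DU145), and 130.07 and 106.03 (PC3). The groups did not overlap, and even the lower DU145 repeat stood far above every VCAP value. MET was higher in DU145 and PC3 by 5.37 on the log2 scale (standard error 0.17, adjusted p = 4e-08, limma). Between these lines PC3 was above DU145 by 1.12 (adjusted p = 0.0074, limma), a call lost without PC3 replicate 1. At the low end DUCAP could not be set apart from LNCaP (adjusted p = 0.41, limma) or from VCAP (adjusted p = 0.29), although the pair of DUCAP and LNCaP passed with quantile-normalized values. VCAP passed against LNCaP at adjusted p = 0.042 (limma), which was lost in 8 of 10 fits that left out a sample, with each LNCaP, DUCAP, VCAP or PC3 sample in turn, and also under the replicate block and without a filter.

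MST1R, the relative of MET that binds macrophage-stimulating protein, repeated this order. It was at 0.15 and 0.84 TPM (LNCaP), 0.64 and 0.9 (DUCAP), 1.96 and 1.11 (VCAP), 28.6 and 34.41 (DU145), and 65.02 and 74.94 (PC3). The difference between the groups was 4.69 (standard error 0.17, adjusted p = 9e-08, limma), again without overlap. PC3 exceeded DU145 by 1.13 (adjusted p = 0.008, limma), whereas the neighbours LNCaP and DUCAP (adjusted p = 0.40) and DUCAP and VCAP (adjusted p = 0.24) did not differ beyond their spread. The first of these pairs passed with quantile-normalized values. Without PC3 replicate 2, or with a pseudocount of 0.1, PC3 and DU145 no longer differed by the test.

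AXL had the largest difference between the groups of the 8 members tested. Its values were 0.12 and 0.04 TPM (LNCaP), 0 in both (DUCAP), 0.07 and 0 (VCAP), 300.39 and 333.68 (DU145), and 129.24 and 98.75 (PC3). In 3 lines AXL was thus at or near 0, and in DU145 it was the most abundant of the receptors followed here. The fitted difference between the groups was 7.52 (standard error 0.11, adjusted p = 2.3e-09, limma). It depends on the pseudocount, reaching 10.49 with 0.1 in place of 1. Unlike MET and MST1R, AXL was higher in DU145 than in PC3, by 1.48 (adjusted p = 0.00018, limma), and no pair among LNCaP, DUCAP and VCAP was called.

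TYRO3, the TAM relative of AXL, was expressed in all 5 lines. It stood at 14.56 and 14.28 TPM (LNCaP), 6.8 and 7.93 (DUCAP), 5.41 and 6.75 (VCAP), 18.07 and 18.55 (DU145), and 25.6 and 20.22 (PC3). DU145 and PC3 were higher without overlap, but LNCaP lay much nearer to them than DUCAP and VCAP did. The difference was 1.15 (standard error 0.11, adjusted p = 2.3e-05, limma), and 0.59 after quantile normalization. PC3 and DU145 (adjusted p = 0.18, limma), DU145 and LNCaP (adjusted p = 0.14) and DUCAP and VCAP (adjusted p = 0.38) were neighbours that could not be set apart. LNCaP passed against DUCAP (adjusted p = 0.0021, limma), but not when samples were quantile-normalized or scaled by median ratios. MERTK, the remaining TAM receptor, ranged from 2.5 to 7.96 TPM over all 10 samples, and its difference of -0.09 did not pass the test (adjusted p = 0.61, limma). It passed at -0.64 after quantile normalization and at -0.45 after median-ratio scaling, and was 0.09 without PC3 replicate 2. It was named after its values were seen.

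EPHA2, the ephrin-A receptor, gave 2.33 and 1.62 TPM (LNCaP), 0.5 and 0.45 (DUCAP), 0.25 and 0.15 (VCAP), 56.25 and 108.42 (DU145), and 280.06 and 271.22 (PC3). PC3 was high in both repeats, and the DU145 repeats were far apart. The groups differed by 6.41 (standard error 0.18, adjusted p = 2.6e-08, limma). PC3 was above DU145 by 1.81 (adjusted p = 0.00097, limma). LNCaP was above DUCAP by 1.00 (adjusted p = 0.014, limma), a call lost with quantile-normalized values, with median-ratio scaling and without LNCaP replicate 1 or either DUCAP repeat. DUCAP and VCAP were not distinguished (adjusted p = 0.54, limma).

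The 4 fibroblast growth factor receptors did not share a pattern. FGFR1 had the highest mean of the 4 in every line, though in LNCaP it was nearly level with FGFR4. It was at 6.44 and 6.42 TPM (LNCaP), 32.58 and 36.56 (DUCAP), 14.67 and 13.38 (VCAP), 52.95 and 60.19 (DU145), and 40.27 and 26.91 (PC3). DUCAP overlapped PC3, and the 2 could not be set apart (difference 0.07, standard error 0.19, adjusted p = 0.79, limma). With quantile-normalized or median-ratio-scaled values this pair did pass. As a group DU145 and PC3 were higher by 1.48 (standard error 0.12, adjusted p = 1e-05, limma). DU145 passed against DUCAP at adjusted p = 0.012 (limma), and no longer did under any of the 3 other scalings or without DUCAP replicate 1. LNCaP was the lowest line and differed from each other line, with adjusted p of at most 0.002 (limma).

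FGFR4, on chromosome 5 from 177086915 to 177098144, divided the groups without overlap at lower levels. It was at 5.47 and 6.18 TPM (LNCaP), 0.4 and 0.47 (DUCAP), 2.92 and 1.49 (VCAP), 21.73 and 18.54 (DU145), and 12.43 and 10.32 (PC3). The order was DU145, PC3, LNCaP, VCAP and DUCAP, and all 10 pairs of lines passed the test. The group difference was 2.37 (standard error 0.15, adjusted p = 1.7e-06, limma). The steps from DU145 to PC3 (adjusted p = 0.023, limma), from PC3 to LNCaP (0.012) and from VCAP to DUCAP (0.012) were each lost when some samples were left out. These were DU145 replicate 1 or PC3 replicate 2 for the first, which a pseudocount of 0.1 also ended, replicate 1 of LNCaP or PC3 for the next, and either DUCAP repeat or VCAP replicate 1 for the last.

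FGFR3, on chromosome 4 from 1793293 to 1808867, was the member called lower. Its values were 1.12 and 0.69 TPM (LNCaP), 1.52 and 1.49 (DUCAP), 5.37 and 2.96 (VCAP), 3.0 and 1.09 (DU145), and 0.18 and 0.07 (PC3). The groups overlapped, since PC3 was lowest of all and DU145 lay between VCAP and LNCaP. The difference was -0.67 (standard error 0.21, adjusted p = 0.017, limma), and -0.64 (adjusted p = 0.056) without PC3 replicate 2. Of the 10 pairs of lines 4 were called, of which 3 set PC3 below VCAP, DUCAP or DU145 and the other set LNCaP below VCAP. Without PC3 replicate 2 only 2 pairs were called, and without either DU145 repeat 7 were.

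FGFR2, on chromosome 10 from 121478330 to 121598458, and RET, on the same chromosome from 43077069 to 43130351, were too low for the fit. FGFR2 was at 0.24 and 0.25 TPM (LNCaP), 0.54 and 0.49 (DUCAP), 0.75 and 0.92 (VCAP), 1.12 and 0.53 (DU145), and 0 and 0.02 (PC3). RET never exceeded 0.42 TPM, with 0.16 and 0.42 (LNCaP), 0.11 and 0.12 (DUCAP), 0.38 and 0.32 (VCAP), 0.08 and 0.06 (DU145), and 0 in both repeats of PC3. These levels are close to the bottom of the scale in every line. Without the filter on low values RET was lower in DU145 and PC3 by -0.27 (adjusted p = 0.0065, limma) and FGFR2 was not called (-0.16, adjusted p = 0.20).

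**Figure D2:**
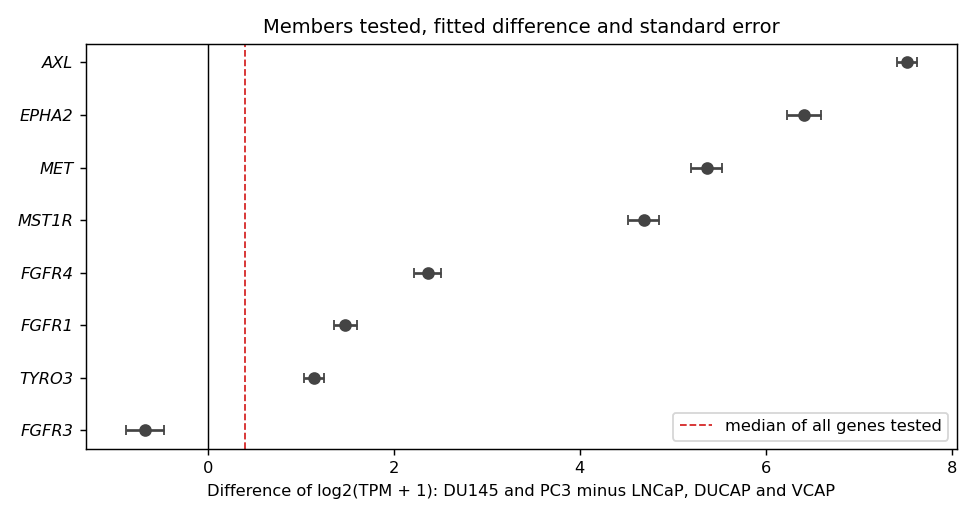
Fitted difference of log2(TPM + 1) between DU145 and PC3 and the other 3 lines for the 8 members tested, with standard errors as bars. AXL (7.52), EPHA2 (6.41), MET (5.37) and MST1R (4.69) lie far to the right of the dashed median of all genes (0.401), TYRO3 (1.15) and FGFR1 (1.48) lie closer to it, and FGFR3 (-0.67) lies left of 0.

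Of the 8 members tested, 6 were higher in DU145 and PC3 without overlap between the samples, beside 19.8% of all genes tested, which is a description since the filter let some members in by their high lines. Permuting whole lines allows only 10 assignments of 5 lines to the groups, and the smallest two-sided p is 0.1. MET, MST1R, AXL and EPHA2 reached it in this exact permutation test, and TYRO3 and FGFR4 gave 0.2, FGFR1 0.3 and FGFR3 0.5. A permutation of whole lines thus cannot pass 0.05 in this design for any gene. It also treats DUCAP and VCAP as independent lines, although they share a patient.

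Among pairs of lines, the share of all genes called was 18.3% for DUCAP and VCAP, 49.3% for DU145 and PC3, 60.7% for LNCaP and DUCAP and 60.1% for LNCaP and VCAP. Between the groups it was 55.9% for LNCaP and DU145, 57.7% for LNCaP and PC3, 66.6% for DUCAP and DU145, 67.8% for DUCAP and PC3, 65.4% for VCAP and DU145 and 67.6% for VCAP and PC3. For the members, the test called FGFR1 and FGFR4 between DUCAP and VCAP, and all 8 except TYRO3 between DU145 and PC3. Of those 7, MET, MST1R and EPHA2 were higher in PC3, and AXL, FGFR1, FGFR3 and FGFR4 were higher in DU145. AXL and EPHA2 kept this call whichever sample was left out, and the other 5 lost it without a PC3 repeat (replicate 1 for MET, replicate 2 for MST1R, FGFR1, FGFR3 and FGFR4) or, for FGFR4, without DU145 replicate 1.

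The place of the members among 58 receptor tyrosine kinases was read within each line from TPM. In DU145 AXL was first at a mean of 317 ± 23.5 TPM (SD, n = 2), followed by EPHA2 at 82.3 ± 36.9 and the collagen receptor DDR1 at 79.0 ± 27.8, and MET was seventh. The DU145 repeats of EPHA2, DDR1 and MET overlapped, so the order of these genes is not settled. In PC3 EPHA2 led at 276 ± 6.25 TPM, with MET (118 ± 17) and AXL (114 ± 21.6) next and within their spread of each other, and MST1R sixth. LNCaP was led by ERBB3 and ERBB2, and its highest member was TYRO3 in place 8. IGF1R led in DUCAP at 47.2 ± 1.05 TPM with FGFR1 behind it at 34.6 ± 2.81, and DDR1 and IGF1R led in VCAP, where FGFR1 was sixth.

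**Figure D3:**
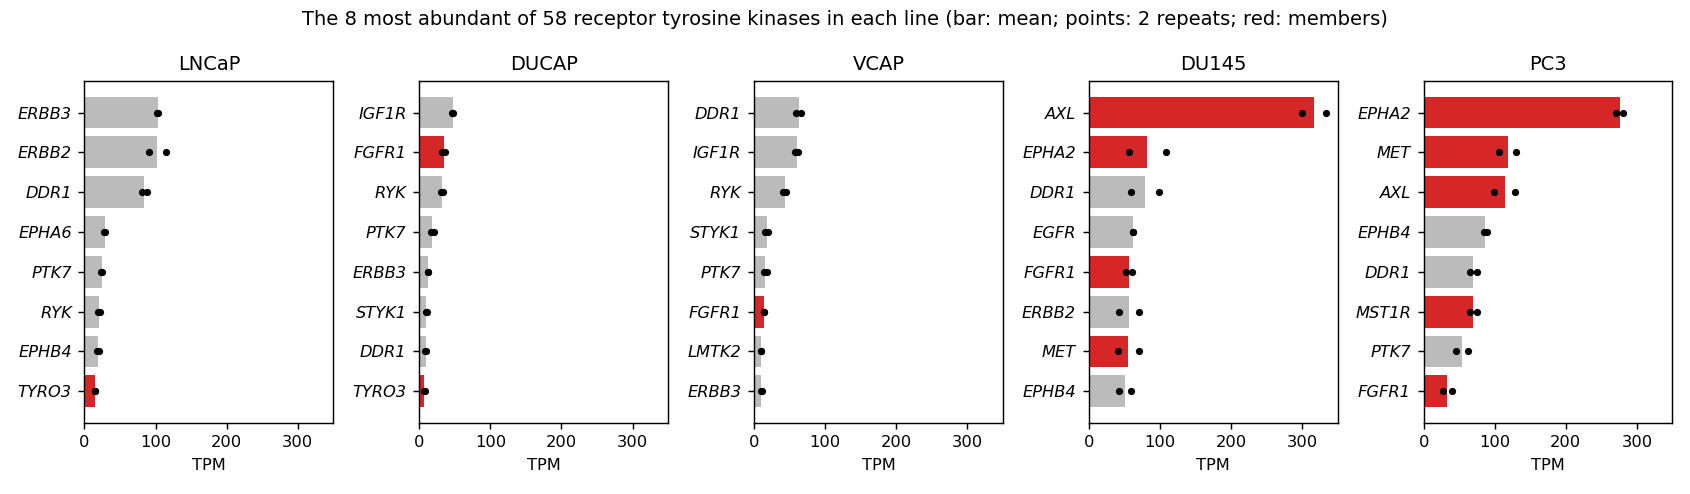
The 8 most abundant of 58 receptor tyrosine kinases in each line, in TPM. Bars are means, points the 2 repeats, and red bars the members described here. Members take places 1, 2, 5 and 7 in DU145 and 1, 2, 3, 6 and 8 in PC3. They take places 2 and 8 in DUCAP, 6 in VCAP and 8 in LNCaP.

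The members' share of the summed TPM of the 58 kinases was 6.14% and 6.56% in LNCaP, 9.05% and 9.73% in VCAP, 19.5% and 20.0% in DUCAP, 51.4% and 64.7% in DU145 and 58.9% and 62.6% in PC3. This share is a ratio within a sample and does not depend on linear scaling between samples. The sum itself ran from 225 TPM in a DUCAP repeat to 1091 TPM in a PC3 repeat. Of the other 48 kinases 27 entered the fit, and 12 were called higher and 6 lower in DU145 and PC3. EPHA4, called higher, also stands in the list of ERK target and feedback genes below and is counted in both. All genes gave shares of 51.9% higher and 22.5% lower. The median of these kinases was 0.164, below the 0.401 of all genes. After quantile normalization 9 of them were higher and 12 lower. The largest rises were EPHB4 (3.05, adjusted p = 4.8e-07, limma) and EGFR (2.95, adjusted p = 2.4e-07), the receptor of epidermal growth factor, which was at 61.46 and 62.05 TPM (DU145) and 25.69 and 17.34 (PC3). The largest falls were EPHA6 (-2.14, adjusted p = 1e-06, limma) and STYK1 (-2.10, adjusted p = 1e-06). EPHA6 overlapped, since PC3 at 3.9 and 4.16 TPM lay near DUCAP (4.74 and 6.26) and VCAP (3.4 and 4.85). It was at 28.55 and 28.06 TPM in LNCaP and 0 in both repeats of DU145. STYK1 did not overlap, at 1.5 to 2.1 TPM in DU145 and PC3 against 7.92 to 20.17 TPM.

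Ligands of the members were compared next, to see whether a line holds a receptor and its factor together. Of all genes tested, 51.9% were called higher in DU145 and PC3 and 22.5% lower. Of 31 ligand genes 14 were tested, of which 10 were higher in DU145 and PC3 and HGF was lower, with a median of 1.105. The count lower was 3 with quantile-normalized values, 4 with median-ratio scaling and 3 without the mitochondrial genes, and the count higher was 6 when 5 TPM in 2 samples were required. HGF, the ligand of MET, was not high where its receptor was. It was listed at 0 in both repeats of LNCaP and of DU145, at 5.64 and 7.9 TPM (DUCAP), 27.4 and 43.68 (VCAP) and 0.9 and 0.19 (PC3). The lines with the most MET had little or no HGF transcript, and the most HGF stood in VCAP. HGF exceeded 0.9 TPM only in DUCAP and VCAP, which share a patient, and LNCaP was low for both genes. The difference was -2.40 (standard error 0.18, adjusted p = 5.8e-06, limma), although LNCaP, at 0, overlapped DU145 and PC3. MST1, the ligand of MST1R, ranged from 1.47 to 14.0 TPM, highest in LNCaP, and did not pass (-0.49, adjusted p = 0.18, limma). It did at -1.04 with quantile normalization and at -0.83 with scaling by median ratios, and also without DU145 replicate 1 (-0.94).

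GAS6 and PROS1, the TAM ligands, were higher in DU145 and PC3, as were AXL and TYRO3 but not MERTK. GAS6 was at 6.21 and 6.43 TPM (LNCaP), 0.29 and 0.47 (DUCAP), 0.53 and 0.38 (VCAP), 53.38 and 32.79 (DU145), and 16.33 and 13.92 (PC3). DU145 held the most of both AXL and GAS6, and LNCaP had GAS6 with AXL at no more than 0.12 TPM. GAS6 differed by 3.42 (standard error 0.15, adjusted p = 2.4e-07, limma). PROS1 was at 53.84 and 17.64 TPM (DU145) and 16.05 and 18.75 (PC3), against 0.44 to 2.28 TPM elsewhere (3.38, adjusted p = 8.8e-06, limma).

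EFNA1, a ligand of EPHA2, was in every sample, from 14.78 TPM in DUCAP to 58.92 TPM in LNCaP. Its difference was 0.09 (standard error 0.26, adjusted p = 0.78, limma), with 49.47 and 16.35 TPM in the DU145 repeats. It was called lower without DU145 replicate 1 (-0.30, adjusted p = 0.03, limma) and higher without replicate 2 (0.47, adjusted p = 0.0034). Its sign was negative under each of the 3 other scalings of the samples. EFNA3 (1.3), EFNA4 (2.32) and EFNA5 (1.36) were called higher in the group contrast, with LNCaP at 17.6 to 41.74 TPM across the 3, within or above the range of DU145 and PC3. EFNA2 was not tested and reached 1.55 TPM.

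FGF2, a broad ligand of the fibroblast growth factor receptors, was listed at 0 in LNCaP and DUCAP and at 0 and 0.03 TPM (VCAP), but at 8.24 and 13.02 (DU145) and 10.71 and 9.64 (PC3). This was the largest rise of the list (3.49, standard error 0.13, adjusted p = 8.5e-08, limma). FGF1 reached 2.36 TPM and FGF5 3.99 TPM, both highest in PC3. The other fibroblast growth factors of the list did not enter the fit, and none of them exceeded 0.67 TPM in any sample. Of the RET ligands, NRTN (1.11, adjusted p = 0.0011, limma) and PSPN (0.85, adjusted p = 0.00082) were called higher and ARTN was not called (-0.18, adjusted p = 0.18, but lower at -0.66 with quantile-normalized values, -0.47 with median-ratio scaling and -0.38 without the mitochondrial genes), while GDNF stayed at or below 0.38 TPM. The co-receptors GFRA1 to GFRA4 reached at most 0.17 TPM, so RET and its co-receptors were low together in all 5 lines.

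**Figure D4:**
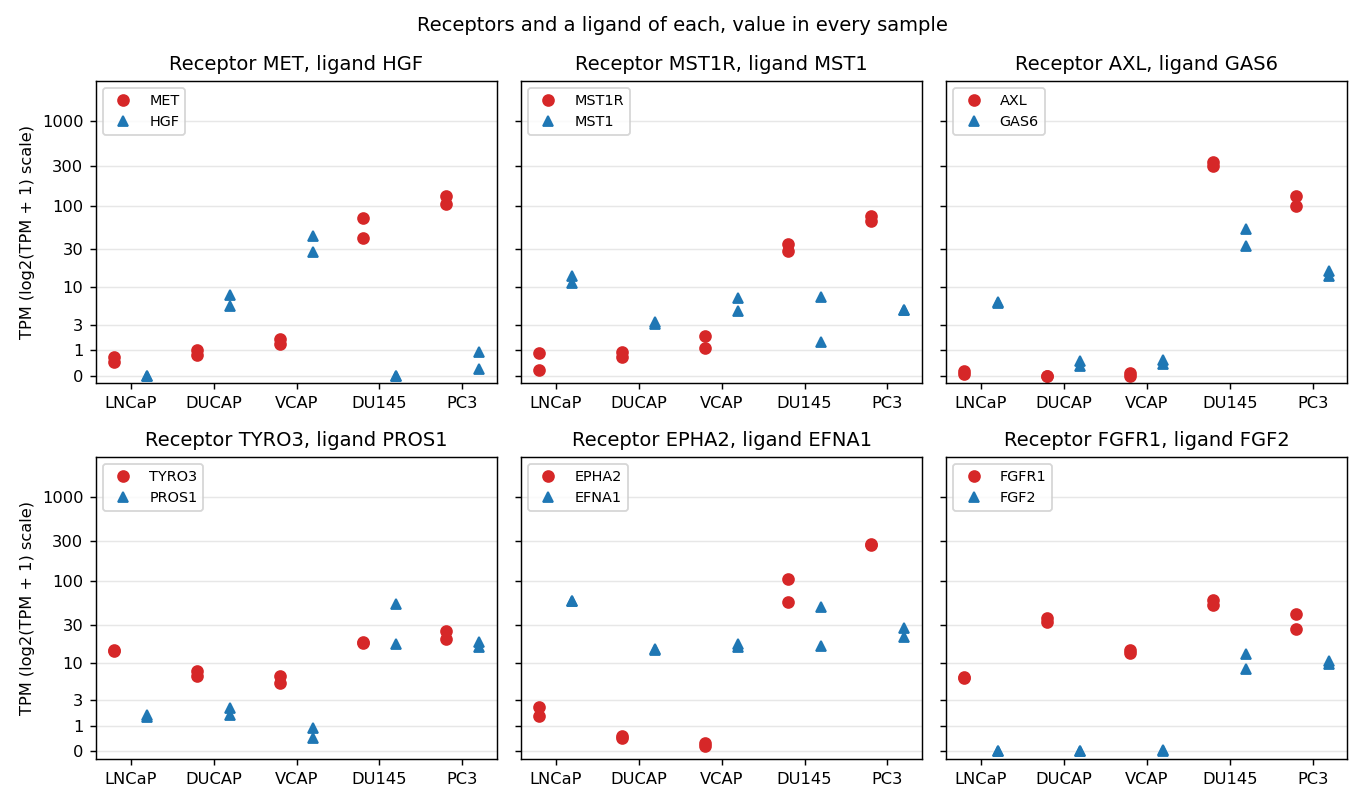
TPM of 6 receptors (circles) and a ligand of each (triangles) in every sample, on a log2(TPM + 1) axis. HGF is highest in VCAP, where MET is at most 1.69 TPM, whereas AXL and GAS6 are both highest in DU145 and FGF2 is at most 0.03 TPM outside DU145 and PC3.

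Among 23 genes of co-receptors and ligand processing, 16 were tested, 9 were higher and 6 lower, with a median of 0.797. The count higher lies near the 51.9% of all genes called higher in DU145 and PC3, beside 22.5% called lower. HPN and ST14, surface proteases known to cut HGF into its active form, were lower in DU145 and PC3. HPN (hepsin) was at 111.95 and 119.44 TPM (LNCaP), 9.41 and 8.26 (DUCAP), 33.77 and 16.49 (VCAP), 1.64 and 0.11 (DU145) and 0 in both repeats of PC3 (-4.54, standard error 0.27, adjusted p = 1.3e-06, limma). ST14 (matriptase) fell from 76.13 to 110.71 TPM in the first group to 13.61 and 10.84 (DU145) and 0.48 and 0.62 in PC3 (-4.33, adjusted p = 1.1e-08, limma). Neither overlapped. Their inhibitors went in opposite directions, SPINT1 at -0.43 (adjusted p = 0.048, limma) and SPINT2 at 0.86 (adjusted p = 4.1e-05), both with overlap between the groups. SPINT2 in LNCaP, at 429.0 and 467.22 TPM, lay above PC3 at 324.6 and 300.92. SPINT1 was not called without the trend in the prior variance (adjusted p = 0.052), under the replicate block (0.059), without a filter (0.091) or in 9 of 10 fits that left out a sample, all but that without DU145 replicate 1.

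Heparan sulphate carriers and other partners of the receptors moved in both directions. FGFBP1, which releases fibroblast growth factors from the matrix, was listed at 0 in all 6 samples of LNCaP, DUCAP and VCAP and at 15.67 to 98.88 TPM in DU145 and PC3 (5.19, adjusted p = 1.2e-07, limma). CD44, a surface protein known to aid MET, was at 0.13 to 32.24 TPM and at 104.4 to 237.37 TPM (4.20, adjusted p = 1.4e-07, limma). The proteoglycans GPC1 (3.90), SDC4 (2.88), SDC1 (2.46) and SDC3 (1.03) were each called higher, SDC3 with overlap, and SDC2 (0.15, adjusted p = 0.39, limma) was not and turned negative under the 3 other scalings, passing as lower with quantile-normalized values (-0.41, adjusted p = 0.029). FGFRL1, a receptor of the family that lacks the kinase part, was lower at 20.9 to 33.63 TPM against 48.92 to 204.04 TPM (-1.86, adjusted p = 1.4e-05, limma). NRP1, a co-receptor of several growth factors, was at 14.25 to 92.95 TPM and at 96.01 to 699.71 TPM (3.25, adjusted p = 2.7e-07, limma). KLB, a co-receptor of endocrine fibroblast growth factors, was called higher at 0.74 (adjusted p = 0.022, limma), with 5.17 and 1.26 TPM (DU145) but at most 0.01 in PC3. This call was lost without a filter, with quantile-normalized values and without PC3 replicate 1, PC3 replicate 2 or VCAP replicate 1. Its relative KL did not exceed 0.17 TPM.

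Adaptors that dock on the activated receptors changed by smaller amounts. Of 24 genes 21 were tested, 14 were higher and 2 lower, with a median of 0.889. Beside these, 51.9% of all genes were called higher and 22.5% lower. After quantile normalization 9 adaptors were higher and 4 lower, so the split of this list rests on the scaling. IRS1, a docking protein best known from insulin signalling, rose most, from 1.41 to 3.77 TPM to 15.08 to 21.02 TPM (2.53, adjusted p = 3.8e-07, limma), and DOK4 rose by 1.77 (adjusted p = 0.00026). GRB14 (-0.93, adjusted p = 0.00026, limma) and GRB10 (-0.60, adjusted p = 0.0078) were called lower, both with overlap. GRB14 was low in PC3, at 0.17 and 0.3 TPM, whereas DU145 (2.39 and 3.58) lay above LNCaP (1.27 and 1.98). GRB10 stood at 125.63 and 155.8 TPM for LNCaP, with no other sample above 36.97 TPM.

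Genes that the ERK cascade is known to induce, with the feedback inhibitors that damp it, were mostly higher in DU145 and PC3. Of 21 genes, all tested, 17 were higher and 2 lower in DU145 and PC3, with a median of 3.335 against 0.401 for all genes. In this list 14 were higher without overlap. The shares of all genes tested were 51.9% higher, 22.5% lower and 19.8% higher without overlap. The list was compiled with earlier results of these data known, so its counts are a description. Under the other scalings 16 or 17 of the list were higher and its median was 2.83 to 3.3. FOSL1, an AP-1 subunit, was at 0.15 to 0.47 TPM in the first group, 100.64 and 364.47 TPM (DU145) and 803.98 and 637.84 TPM in PC3 (8.16, standard error 0.31, adjusted p = 1.2e-07, limma). IER3, an immediate early gene, was at 0 to 0.13 TPM and at 189.74 to 330.06 TPM (7.97, adjusted p = 8.7e-09, limma). MYC was lower, at 86.84 to 135.11 TPM against 199.65 to 330.2 TPM (-1.38, adjusted p = 3.8e-06, limma).

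The following feedback genes were picked after their values were seen. DUSP6, a phosphatase of ERK, was at 38.43 and 14.94 TPM (DU145), 107.97 and 146.45 (PC3) and 0.15 to 3.34 elsewhere (4.62, adjusted p = 7.2e-07, limma). SPRY4, a receptor feedback inhibitor, was at 3.97 and 3.56 TPM (DU145) and 103.2 and 141.63 (PC3), so that DU145 lay close to the 2.92 TPM of the higher DUCAP repeat. The ETS factors ETV4 (5.63, adjusted p = 1.8e-08, limma) and ETV5 (5.02, adjusted p = 1.1e-07) were at most at 0.3 and 1.26 TPM in LNCaP, DUCAP or VCAP. FOS (-2.16, adjusted p = 0.082, limma) and EGR1 (1.06, adjusted p = 0.19), short-lived immediate early transcripts, were not called. Repeats lay far apart in DUCAP and DU145, with FOS at 81.1 and 3.01 TPM and EGR1 at 236.89 and 28.33 in DU145. The LNCaP repeats also lay far apart for FOS, at 11.71 and 0.75 TPM. PC3 was low in both repeats, with FOS at 0.78 and 0.9 TPM and EGR1 at 0.96 and 1.51. The list does not say which receptor, if any, its transcripts follow.

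**Figure D5:**
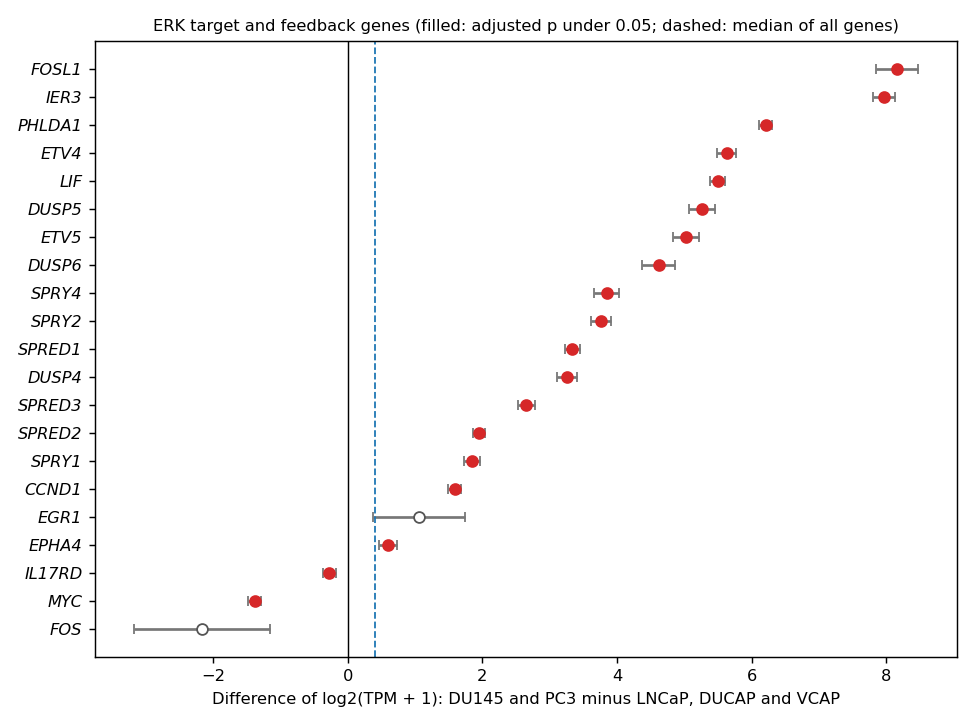
Fitted difference of log2(TPM + 1) between DU145 and PC3 and the other 3 lines, with standard error, for 21 ERK target and feedback genes. Filled points passed at an adjusted p under 0.05, the dashed line is the median of all genes (0.401), and 17 filled points lie right of 0 against MYC and IL17RD on the left.

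Across the 10 samples the members' log2(TPM + 1) values were correlated as a description only, since the points are 5 lines in 2 repeats each. Pearson's r was 0.993 for MET and MST1R, 0.976 for MET and EPHA2, 0.961 for MET and AXL and 0.944 for EPHA2 and AXL. FGFR2 and FGFR3 were the other close pair, at 0.897, both lowest in PC3. TYRO3 was nearest to EPHA2 (0.888) and FGFR4 to TYRO3 (0.856), whereas RET was most negative to EPHA2 (-0.765) and MET (-0.752). RET reached at most 0.42 TPM and FGFR2 at most 1.12 TPM, so their correlations describe changes near the bottom of the scale.

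The genes most like each member were taken from 11475 or 11476 tested genes that reach 10 TPM. For MET they were AFAP1L1 (r = 0.9987), IGF2BP2 (0.9967) and SLCO1B3 (0.9953), and AFAP1L1 averaged 14.5 TPM (DU145) and 24.6 in PC3 against at most 0.52 elsewhere. For MST1R they were CTHRC1 (0.9947), AFAP1L1 and TMEM101 (both 0.9933). AXL was closest to MDFIC (0.9992), MYEOV (0.999) and MISP (0.9989). MDFIC averaged 23.3 TPM (DU145) and 12.9 (PC3), and MYEOV 86.4 and 42.3. EPHA2 was closest to COL12A1 (0.9992), SNAPC1 (0.996) and ARNTL2 (0.9938). TYRO3 was nearest to VPS33A (0.9907), SYPL1 (0.9888) and CHURC1 (0.9882), and FGFR4 to L3HYPDH (0.9917), NBPF15 (0.9907) and ANKS6 (0.9889). FGFR1 had weaker neighbours in RBM22 (0.9721), FJX1 (0.9498) and EPDR1 (0.9466), as had FGFR3 in DDX17 (0.9527), ATXN7 (0.9477) and MSH5 (0.946). FGFR2 was nearest to ARPIN (0.9834), UBE2J1 (0.9434) and CADM1 (0.932), and RET to ZNF528 (0.9452), AC020978.5 (0.9344) and DENND11 (0.9207), though both members lay close to the bottom of the scale.

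The repeats of DU145 differed most. The median gene differed by 0.318 on the log2 scale between them, against 0.123 to 0.197 in the other lines. For MET, EPHA2 and FGFR3 the DU145 repeats differed by 0.78, 0.93 and 0.94. The group differences of MET were 5.17 to 5.56 when any 1 sample was left out, those of EPHA2 6.18 to 6.65, those of AXL 7.42 to 7.62 and those of MST1R 4.57 to 4.80.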

How the data were processed

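Bulk RNA-seq of 10 samples (5 lines, 2 repeats each) was analysed from the authors' deposited TPM values per gene symbol. Per the labels, methods and processing notes, polyA-selected stranded libraries were read with FastQC 0.11.9, Trim Galore 0.6.5, STAR 2.7.2b and RSEM 1.3.3 against GRCh38 (Ensembl annotation, ERCC spike-ins included). TPM is relative within a library and keeps no depth.

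Here log2(TPM + 1) was tested with limma 3.58.1 in R 4.3.3 for 17520 genes reaching 1 TPM in 2 or more samples, with a trend in the prior variance, a coefficient per line and Benjamini-Hochberg adjustment over all genes tested at 0.05. Contrasts were all lines (F-test), DU145 and PC3 against the other lines with lines weighted equally, and all 10 pairs. Scripts were tested on simulated data. Named were all members, their direct ligands and co-receptors, the 2 largest called changes per list and direction reaching 5 TPM, and 3 nearest genes per member. Members and lists were chosen with earlier results of these data known. Alternatives were other pseudocounts, filters, scalings, variance models, thresholds, the replicate number as a block, and each sample left out. Culture numbers in the labels' descriptions differ from repeat numbers for DU145 and PC3, and labels were used as given. No receptor protein sequence was used here.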

Additional observations from a re-analysis of the deposited data

How the results depend on the processing

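Under other settings, 623 values kept their direction and side of the threshold, 13 no longer passed, 7 newly passed, 27 moved and 6 reversed, and with a sample left out the numbers were 726, 13, 2, 10 and 3. The 7 members called higher in DU145 and PC3 were called higher in every alternative run. The count of members called lower (1, FGFR3) was 2 without a filter, 0 with at least 5 TPM in 2 samples, 0 with at least a 2-fold change and 0 to 1 leaving out samples (0 without PC3 replicate 2). FGFR3 was called in 4 pairs of lines and in 7 with the replicate block. Calls lower in the gene lists were 17 and 28 after quantile normalization, 26 after median-ratio scaling and 10 with at least a 2-fold change.

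EFNA1 was -0.45, -0.33 and -0.15 and SDC2 -0.41, -0.20 and -0.09 with values quantile-normalized, scaled by median ratios, or rescaled with the mitochondrial genes removed. Leaving out samples, EFNA1 ranged from -0.30 to 0.47 (-0.30 without DU145 replicate 1, 0 without PC3 replicate 1) and MERTK from -0.28 to 0.09 (0.09 without PC3 replicate 2). The cause of these changes was not tested. The scaling moved the median log2 difference of all genes from 0.401 to -0.085 (quantile), 0.028 (median-ratio) and 0.199 (without mitochondrial genes), and the higher share of called genes from 69.8% to 46.2%, 52.2% and 60.7%.

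Same-numbered repeats showed no common deviation on average. The mean correlation of same-numbered deviations was 0.00922 (-0.191 to 0.249) over 10 pairs of lines. Culture numbers differ from repeat numbers for DU145 and PC3, so this check cannot tell which cultures were handled together. With the replicate block 9080 genes were higher and 3927 lower, against 9093 and 3940, and all 8 members tested kept their call.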
